A study of Mus musculus with 38 samples.

Results

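The data describe the RNA that was not on polysomes in fully grown mouse oocytes at the germinal vesicle (GV) stage, arrested in meiotic prophase, and in oocytes matured to metaphase II (MII). The 6 libraries compared are those labelled as the non-polysome (NP) fraction of MII and of GV oocytes, 3 of each, out of 36 libraries with values; they were chosen by stage and fraction alone. Oocytes came from ICR mice of at least 6 weeks primed with PMSG, a gonadotropin that drives follicle growth, and were held at GV with IBMX, an inhibitor of cAMP breakdown, while they were collected. Both groups were denuded of cumulus cells and lysed after cycloheximide, which freezes ribosomes on mRNA. GV oocytes had 0 h and MII oocytes 12 h of culture without IBMX, so MII here is maturation in vitro and stage and culture time cannot be told apart. Each lysate was spun through a sucrose gradient cut into 10 fractions, and the lighter 5 were pooled as the NP fraction and the heavier 5 as polysomes (P). The question addressed is which transcripts gain or lose abundance outside polysomes during meiotic maturation.

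A fully grown oocyte makes almost no new RNA. Maturation therefore runs on stored maternal mRNAs, which are kept out of polysomes by repressive proteins, recruited to polysomes when their poly(A) tails are lengthened, or deadenylated and degraded. A main switch is the cytoplasmic polyadenylation element (CPE), a short U-rich sequence near the 3′ end of the 3′ UTR that binds CPEB proteins. An mRNA can thus leave the NP fraction by loading ribosomes or by decay, and a value in this fraction alone does not tell which.

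Values are normalized FPKM (fragments scaled to transcript length and to the mapped fragments of the library) with a floor of 0.01, and each gene is thus a share of its own library. Steps in the low values, of which 49.3 to 58.4% per library lay within 0.1 of a whole step, put the depth roughly between 20200000 and 26300000 fragments per library, which is an estimate. The MII libraries correlated with each other at r = 0.815 to 0.855 across the genes tested, the GV libraries at 0.719 to 0.824, and MII with GV libraries at 0.519 to 0.677; genes are not independent points. GV replicate B stood apart before any comparison, with 6886 genes above 0.1 FPKM against 8461 and 9588 in the other GV libraries and 17.9% of the genes tested at the floor against 8.27% and 4.05%. Gene group counts that move by over 1.5 times without it are also given without it. Of the oocyte markers, Gdf9, Zp3, H1foo and Mos were abundant in all 6 libraries, while Ddx4 lay between 0.0108 and 0.373 FPKM. Of 13 granulosa and cumulus markers none passed the minimum for testing, 6 were at the floor in every library, Amh, Foxl2 and Lhcgr among them, and their sum was 3.94 to 24.1 FPKM in MII against 0.16 to 0.26 in GV, with most of the MII sum from Inha and Hsd17b1. The part of these markers in the results was not tested. In bulk RNA of this kind, fewer cells of a type and less RNA per cell cannot be told apart.

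NP RNA was remodelled widely between the stages. Of 7967 genes tested, 1326 (16.6%) were called at a limma Benjamini-Hochberg adjusted p under 0.05 and a fold change over 2. Of these, 1076 genes (13.5%) were higher in MII, with a median log2 rise of 4.63, and 250 (3.14%) were lower, with a median log2 change of -2.53. Higher genes were scarce in the GV fraction, with a median mean level of 0.41 FPKM there against 5.76 in MII, and lower genes were more abundant, with 10.8 FPKM in GV against 2.23 in MII. The size of many rises rests on the floor: 599 of the higher genes had no GV library at 0.01 FPKM, 417 had 1 or 2, and 60 had all 3. The MII and GV libraries did not overlap for 1032 of the higher and 245 of the lower genes, beside 3789 (47.6%) of all genes tested. The median log2 change of all genes tested was 0.44, and the share of calls that were higher depended on scaling: it was 81.1% as deposited, 62.3% (699 higher, 423 lower) with each library centred on its median, which put the median of all genes at -0.18, and 49.3% (1046 higher, 1075 lower) after quantile normalization, which put it at -0.39. Without GV replicate B, the median of all genes was 0.16, 608 genes were higher and 169 lower, and 585 and 150 of these were among the calls above.

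**Figure D1:**
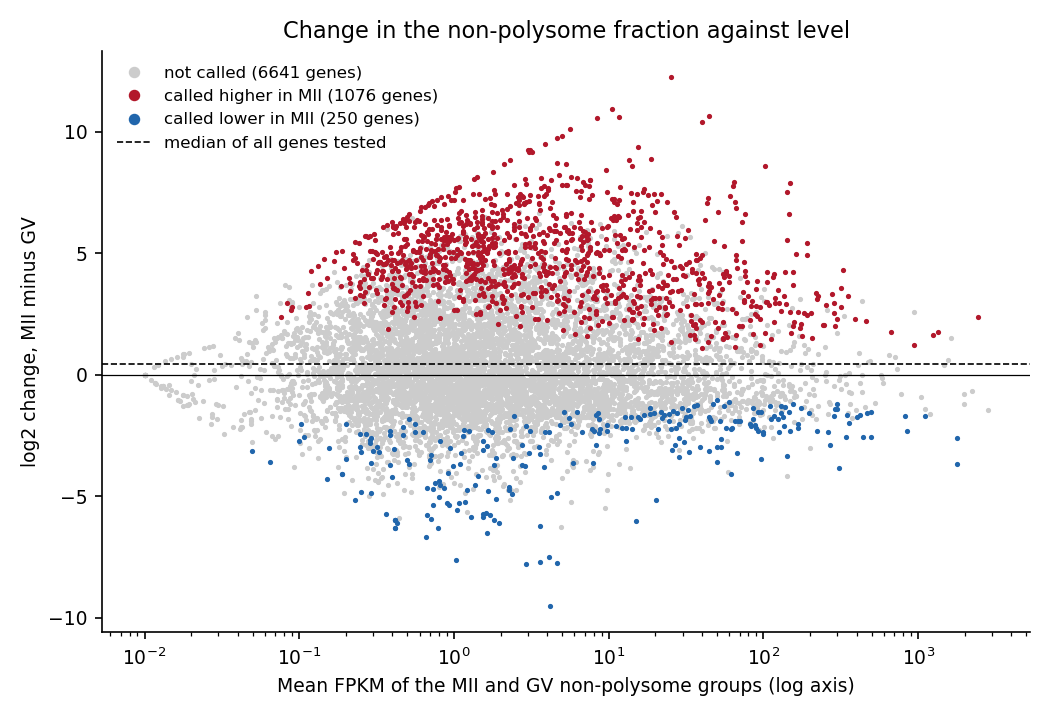
Each point is 1 of 7967 genes tested: mean FPKM of the MII and GV non-polysome groups (log axis) against the log2 change, MII minus GV. Red marks the 1076 genes called higher in MII, blue the 250 called lower, and the dashed line the median of all genes, 0.44; the falls reach the most abundant genes, and the largest rises lie along the floor of the GV libraries.

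Among the falls, Pttg1, which encodes securin, the inhibitor that holds separase back until anaphase, was the most abundant of the genes with the largest falls. It lay at 3415, 3569 and 2945 FPKM in the GV libraries A, B and C and at 233, 319 and 229 FPKM in the MII libraries. The groups did not overlap, and the log2 change was -3.68 ± 0.37 (SE; limma adjusted p = 1.52e-07). Pttg1 also fell in polysomes, by 3.35 on the log2 scale (adjusted p = 5.21e-07), so securin RNA was lower on both sides of the gradient. Other cell cycle genes fell less. Cks1b, a subunit that binds the cyclin-dependent kinase CDK1, went from 371 to 487 FPKM in GV to 143 to 204 FPKM in MII (log2 -1.40 ± 0.36, adjusted p = 0.00779), and its paralog Cks2 changed by -1.81 ± 0.45 (adjusted p = 0.0052). Ccna2, cyclin A2, changed by -1.59 ± 0.45 (adjusted p = 0.015), a call kept in 3 of the 6 fits that left out 1 library. Birc5, the survivin subunit of the chromosomal passenger complex, went the other way, from 44.8 to 67.2 FPKM in GV to 121 to 152 FPKM in MII (log2 1.24 ± 0.36, adjusted p = 0.0177). These 5 were the members called (1 higher, 4 lower) of 41 meiotic cell cycle genes tested, beside 13.5% higher and 3.14% lower over all genes. Birc5 was not called with median centring or quantile normalization, which called 0 members higher and 4 and 9 lower. The median log2 change of the 41 was -0.58 beside 0.44 for all genes.

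**Figure D2:**
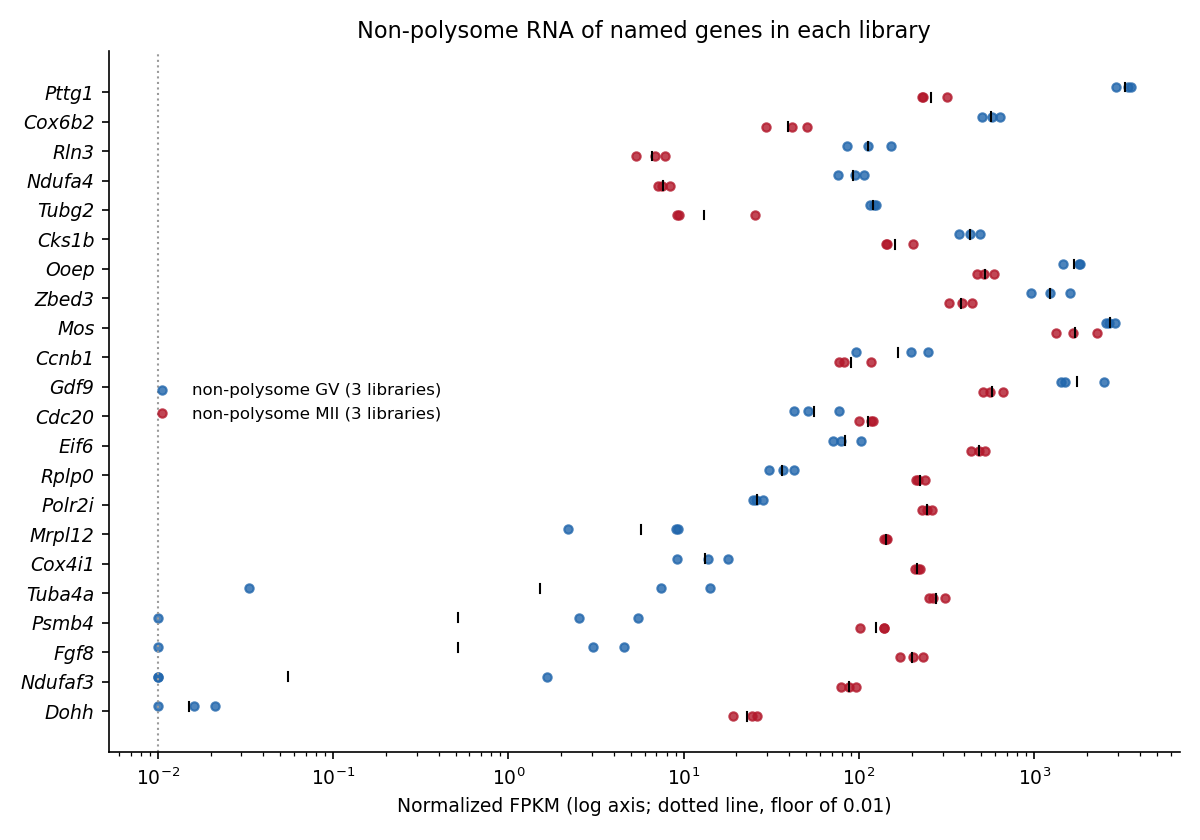
FPKM (log axis) of 22 named genes in the 3 GV (blue) and 3 MII (red) non-polysome libraries; black ticks are geometric means and the dotted line the floor of 0.01 FPKM. Pttg1 falls from 2945 to 3569 FPKM to 229 to 319 FPKM, while Rplp0 rises from 30.5 to 42.6 FPKM to 212 to 237 FPKM.

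Among classical targets of translational activation at maturation, Mos and Ccnb1 stayed at 76.9 FPKM or higher outside polysomes in every library. Mos, the kinase that keeps MAP kinase active and sustains MII arrest, had 2895, 2661 and 2571 FPKM in GV and 1333, 1672 and 2279 FPKM in MII. All 3 MII values were lower, but the log2 change of -0.65 ± 1.44 did not pass the test (adjusted p = 0.805). The SE, as for every gene here, pools the spread of all 36 libraries and is not that of these values alone. Ccnb1, cyclin B1, had 197, 248 and 95.8 FPKM in GV against 117, 82.5 and 76.9 in MII, groups that overlap, with a log2 change of -0.89 ± 0.42 (adjusted p = 0.164); in polysomes it rose by 1.71 (adjusted p = 0.0115), and the difference between the fractions was -2.60 (adjusted p = 0.069). Plat, tissue-type plasminogen activator, gave 1.45 ± 1.34 (adjusted p = 0.51), Btg4, an adaptor of the CCR4-NOT deadenylase, -0.47 ± 0.55 (adjusted p = 0.618), and Tpx2, a spindle assembly factor, -0.73 ± 1.14 (adjusted p = 0.72). Plat stayed uncalled in 11 of 13 other settings and was called higher in the rest, as with 1 FPKM added (limma adjusted p = 0.00993). Ccnb1 stayed uncalled in 5 of the 6 fits that left out a library and was called lower in the other. Of 17 such genes tested only Cdc6, a licensing factor for DNA replication, was called, at 0.074 to 0.91 FPKM in GV and 6.65 ± 4.16 FPKM in MII (SD, n = 3; log2 4.07 ± 1.13, adjusted p = 0.0128), a call lost without MII replicate A, without GV replicate A, with median centring and with the 18 non-polysome libraries fitted. The share called higher was 5.88%, beside 13.5% higher and 3.14% lower over all genes. Quantile normalization called 1 of the 17 higher and 4 lower, beside 1046 higher and 1075 lower of all 7967 genes. With the 12 oocyte libraries fitted 3 were higher and 2 lower, beside 1867 and 799 of all genes. With the 6 libraries alone fitted the counts were 1 and 2, beside 1240 and 567. The median log2 change of the 17 was -0.65 in the NP fraction and 0.80 in polysomes, beside 0.44 and 0.18 for all genes.

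Genes for oocyte products and storage proteins were called in both directions. Ooep, a core member of the subcortical maternal complex that is needed for cleavage, went from 1460 to 1814 FPKM in GV to 474 to 591 in MII (log2 -1.68 ± 0.42, adjusted p = 0.00574), and Zbed3, another member, from 963 to 1608 to 327 to 440 (log2 -1.70 ± 0.42, adjusted p = 0.00562). They were the 2 called of 7 members tested, both lower, a share of 28.57% beside 3.14% of all genes. Gdf9, an oocyte-secreted growth factor, gave -1.60 ± 0.73 (adjusted p = 0.138), H1foo, the oocyte linker histone, -1.21 ± 0.68 (adjusted p = 0.249), and Zar1, which binds and protects stored mRNAs, -1.15 ± 0.63 (adjusted p = 0.238). None of the 3 passed. Their MII and GV values did not overlap, as for 47.6% of all genes. In 13 other settings Gdf9 and H1foo stayed uncalled in 11 and Zar1 in 10, and they were called in the rest. Zp3, a zona pellucida glycoprotein, gave 0.89 ± 0.88 (adjusted p = 0.541) and Ybx2, the germ cell Y-box protein that packages mRNA, 0.73 ± 1.20 (adjusted p = 0.73). Of 7 oocyte-secreted factors 2 were lower under quantile normalization, with the 6 libraries and with the 12 oocyte libraries fitted. In these settings 1075, 567 and 799 of all 7967 genes were lower. In the main fit 1 of the 7 was called, higher, a share of 14.29% beside 13.5% of all genes. This was Fgf8, a factor by which the oocyte instructs cumulus cells. It had 4.55, 0.01 and 3.03 FPKM in GV and 231, 204 and 171 in MII. Every MII library lay far above every GV library, the log2 change was 8.60 ± 1.40 (adjusted p = 9.34e-05), and it also rose in polysomes, by 5.75 (adjusted p = 0.00988). Figla, an oocyte transcription factor, rose from 0.01 to 0.254 FPKM to 3.24 to 3.89 (log2 5.79 ± 1.39, adjusted p = 0.00435), a call lost without GV replicate B. Of 18 storage and repression genes 2 rose, a share of 11.1% beside 13.5% of all genes: Pabpc1l, an embryonic poly(A)-binding protein, and Patl2, a repressor of oocyte mRNA (log2 4.35 and 2.78). Without GV replicate B 0 did, and the call of Patl2, at 0.0443 to 0.802 FPKM, was kept in 2 of the 6 fits that left out a library.

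The broadest rise was in genes for ribosomes. Of 88 cytosolic ribosomal protein genes tested, 47 rose and 2 fell, beside 13.5% and 3.14% of all genes, and their median log2 change was 2.60 beside 0.44. Rplp0, a protein of the ribosomal stalk, had 30.5, 36.7 and 42.6 FPKM in GV and 212, 218 and 237 in MII (log2 2.61 ± 0.32, adjusted p = 1.74e-06). Rps9 went from 1.80 to 6.09 FPKM to 59.9 to 79.3 (log2 4.17 ± 0.53) and Rps20 from 0.383 to 1.31 to 13.3 to 20.5 (log2 4.39 ± 0.56), both at adjusted p = 3.43e-06. Rpl24 rose from a level near the floor, 0.0103 to 0.133 FPKM, to 1.26 to 2.25, and Rpl35 gave 0.47 ± 0.62 (adjusted p = 0.666) with overlapping values, a direction that turned to -0.16 with median centring and to -0.055 with quantile normalization. The 2 that fell, picked out after their values were seen, were Rps28, from 0.838 to 1.21 FPKM to 0.169 to 0.242 (log2 -2.37), and the Rps27 paralog Rps27l, from 111 to 133 to 36.8 to 59.2 (log2 -1.38). In polysomes 21 of the same 88 rose and 4 fell, beside 268 and 219 of all 7967 genes, with a median of 1.44 beside 0.18. Under quantile normalization 46 rose and 4 fell, with centring 34 and 3, and without GV replicate B 39 and 2. Ribosomal protein genes have many processed pseudogenes that can share reads, so single members are uncertain.

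Genes of the mitochondrial ribosome and the proteasome also held more rises than all genes did. Of 73 mitochondrial ribosomal protein genes 20 rose and 0 fell (27.4% higher beside 13.5% of all genes, median 1.68); Mrpl12 went from 2.18 to 9.30 FPKM to 139 to 145 (log2 4.64 ± 0.59, adjusted p = 3.43e-06). By limma at an unadjusted p under 0.05, 28 were higher and 0 lower. At that p 2275 of all 7967 genes passed in either direction, the count to set beside the unadjusted counts of this paragraph. Without GV replicate B 12 rose, with median centring 11 rose, and under quantile normalization 24 rose and 2 fell. Of 40 proteasome genes 10 rose and 0 fell in the limma fit (11 and 1 at an unadjusted p under 0.05), beside 13.5% of all genes higher, with a median of 1.38 beside 0.44. Without GV replicate B 7 rose. Psmb4, a subunit of the catalytic core, had 2.52, 0.01 and 5.49 FPKM in GV and 102, 138 and 139 in MII (log2 7.92 ± 1.34, adjusted p = 0.00015). Of 7 subunits of the CCT chaperonin, which folds actin and tubulin, Cct3 and Cct5 rose (log2 5.04 and 7.09), beside 13.5% of all genes, and 1 of the 7 rose with the 6 libraries alone fitted. Of 13 tubulin and actin genes 3 rose and 1 fell, beside 13.5% and 3.14% of all genes. The tubulin gene Tuba4a rose from 0.0332 to 14.2 FPKM to 252 to 309 (log2 7.50 ± 1.56, adjusted p = 0.00129), while Actb, cytoplasmic actin, fell from 60.9 to 167 FPKM to 22.9 to 34.8 (log2 -1.91 ± 0.51, adjusted p = 0.0101), a call lost without GV replicate C. The calls of Psmb4 and Tuba4a were lost with the 6 libraries alone fitted. Of 39 histone cluster genes 7 rose and 0 fell in the limma fit (11 and 3 at an unadjusted p under 0.05), near the 13.5% of all genes. Without GV replicate B 4 rose with a median of 1.13 (0.16 for all genes) beside 1.84 with it, with median centring 4 rose, and under quantile normalization 5 rose and 2 fell. Hist1h4a, a histone H4 gene, went from 2.20 to 7.90 FPKM to 46.2 to 68.7 (log2 4.04 ± 0.94, adjusted p = 0.00333); clustered histone genes are near identical and may share reads.

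Oxidative phosphorylation genes split. Of 83 nuclear genes for subunits and assembly factors 27 rose and 7 fell, beside 13.5% and 3.14% of all genes, with a median of 1.75 beside 0.44. The assembly factor of complex I Ndufaf3 was at the floor in GV libraries A and B and at 1.67 FPKM in C, against 88.2, 79.1 and 96.6 FPKM in MII (log2 10.64 ± 1.23, adjusted p = 9.44e-07). Cox4i1, a subunit of cytochrome c oxidase, went from 9.20 to 17.9 FPKM to 210 to 222 (log2 4.04 ± 0.52, adjusted p = 4.05e-06) and Atp5j2, a subunit of ATP synthase, from 2.64 to 2.73 to 70.1 to 84.2 (adjusted p = 3.43e-06). Against this, the testis-type subunit of cytochrome c oxidase Cox6b2 had 640, 506 and 573 FPKM in GV and 50.3, 41.4 and 29.6 in MII (log2 -3.85 ± 0.51, adjusted p = 4.89e-06), and Ndufa4, first assigned to complex I and now placed in cytochrome c oxidase, fell from 76.2 to 107 FPKM to 7.17 to 8.32 (log2 -3.59 ± 0.54, adjusted p = 3.51e-05). The others that fell, listed after their values were seen, were Ndufa1 and 4 more subunits of cytochrome c oxidase, Cox6a1, Cox6b1, Cox6c and Cox8a, with log2 changes from -2.62 to -1.35. All 7 also fell in polysomes. Without GV replicate B 13 members rose and 5 fell.

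Translation factors also moved both ways. Of 50 initiation factor genes 11 rose and 6 fell, beside 13.5% and 3.14% of all genes, and their median was 0.42 beside 0.44 for all genes. Among the 6 were 2 processed pseudogenes, Eif1-ps2 and Eif4a-ps4, which may share reads with Eif1 and Eif4a1, also among the 6. Eif5a was another, and it is counted again below with the elongation genes. Under quantile normalization 11 rose and 16 fell with a median of -0.14, and with median centring 6 rose and 9 fell with a median of -0.21. Without GV replicate B 6 rose and 5 fell with a median of 0.75 (0.16 for all genes). Eif6, which keeps the ribosomal subunits apart, rose from 71.6 to 102 FPKM to 438 to 527 (log2 2.53 ± 0.33, adjusted p = 4.93e-06), and Eif2b2, a subunit of the exchange factor of eIF2, from 2.08 to 4.21 to 41.9 to 53.9 (log2 3.92 ± 0.47, adjusted p = 1.7e-06). Eif1, which guards the choice of start codon, fell from 388 to 467 FPKM to 138 to 176 (log2 -1.41 ± 0.24, adjusted p = 0.000183), and Eif4a1, the RNA helicase of the cap complex, picked out after its values were seen, from 7.33 to 12.6 to 1.84 to 2.45 (log2 -2.02). Of 11 genes listed with elongation and termination 3 rose (1 without GV replicate B) and 2 fell, beside 13.5% and 3.14% of all genes. Eef1a1 rose from 0.0763 to 0.918 FPKM to 12.1 to 18.2 (log2 5.25 ± 0.79, adjusted p = 3.37e-05). The 2 that fell were Tpt1, which is not itself an elongation or termination factor, and Eif5a. The call of Eif5a was lost without MII replicate A or GV replicate C. Beside 16.6% of all genes, 2 of 32 deadenylation, decapping and decay genes were called, the exosome subunit Exosc5 (log2 4.09) and the deadenylase subunit Pan3 (log2 -3.18), and 2 of 16 polyadenylation genes, the cleavage factor subunit Cpsf4 (log2 7.25) and the nuclear poly(A)-binding protein Pabpn1 (log2 -3.32, at most 1.76 FPKM). The MII and GV values of Pabpn1 overlap, and its call was lost without MII replicate B, MII replicate C or GV replicate B. Under quantile normalization, which lowers the median of all genes, the decay genes had 2 higher and 7 lower and the polyadenylation genes 1 and 4.

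**Figure D3:**
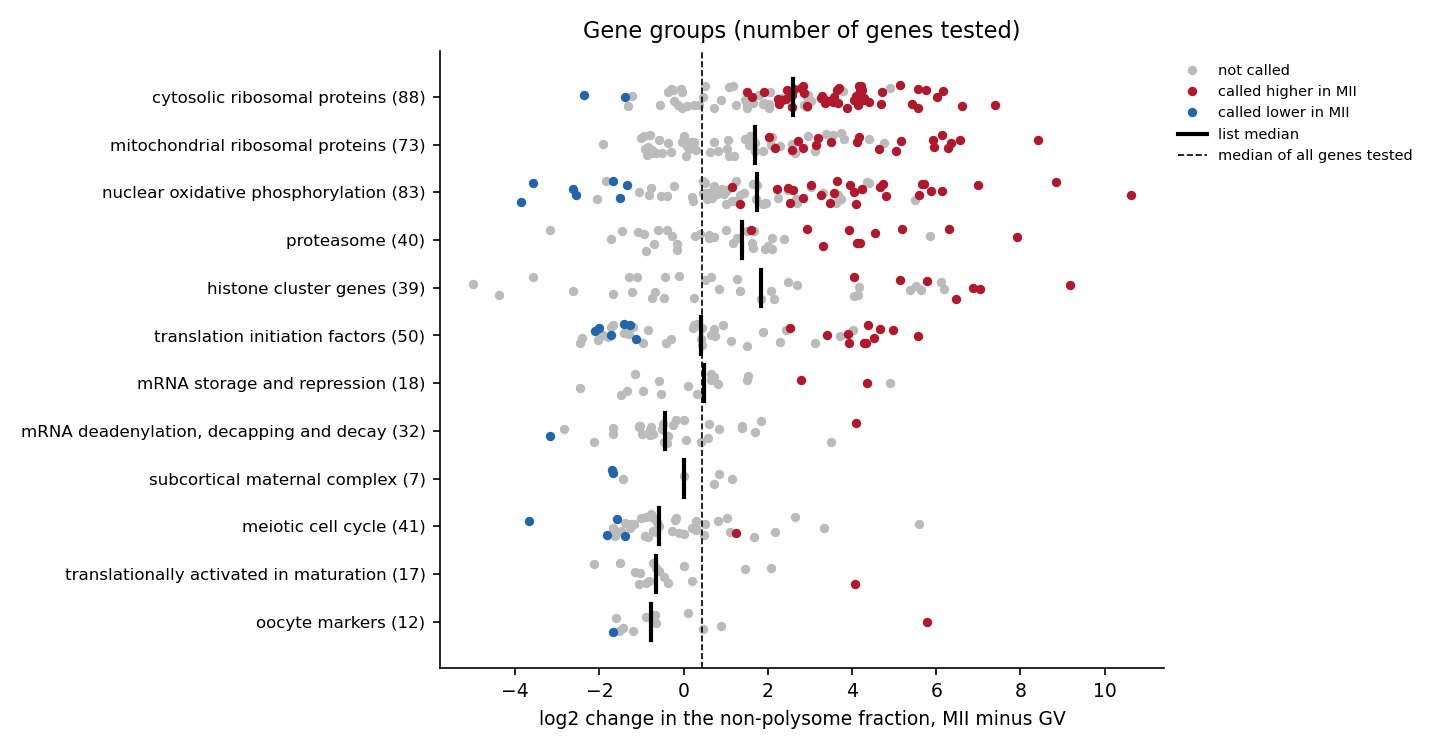
Log2 change of each gene tested (points) in 12 groups, with the number tested in parentheses; red and blue are genes called higher and lower in MII, black bars group medians, and the dashed line the median of all genes, 0.44. Cytosolic ribosomal protein genes lie farthest to the right (median 2.60), and oocyte markers farthest to the left (-0.78).

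The largest single changes among called genes with at least 10 FPKM in the higher group were spread over many functions, some of them described above. Dohh, which completes the hypusine modification of eIF5A, had 0.0211, 0.0161 and 0.01 FPKM in GV and 23.3 ± 3.67 FPKM in MII (SD, n = 3; log2 10.58 ± 1.73, adjusted p = 9.94e-05). The 10 largest rises in protein-coding genes also held Ndufaf3 and Fgf8, given above, Yif1a of transport from the endoplasmic reticulum to the Golgi, the polarity scaffold Lin7b, the Nudix hydrolase Nudt22, the mitochondrial ribosomal protein Mrpl11, the ubiquitin-like membrane protein Tmub1, the glyoxylate reductase Grhpr and the complex I subunit Ndufb10. The last 7 each had at least 1 GV library at the floor and MII values from 4.16 to 45.1 FPKM, and the call of Ndufb10 was kept in 1 of the 6 fits that left out a library. Polr2i, a subunit of RNA polymerase II, rose from 24.8 to 28.4 FPKM to 229 to 263 (log2 3.22 ± 0.54, adjusted p = 0.000135). The RNAs 2610306M01Rik, AC132247.1 and Rpl23a-ps3, none protein-coding, were listed at the floor in all 3 GV libraries and lay between 7.43 and 71.7 FPKM in MII. On the other side Rln3, the peptide relaxin 3, went from 85.0 to 152 FPKM to 5.35 to 7.87 (log2 -4.09 ± 0.71, adjusted p = 0.000198), Tubg2, a gamma-tubulin, from 116 to 126 to 9.17 to 25.7 (log2 -3.21 ± 0.47, adjusted p = 2.08e-05), and Pim3, a serine/threonine kinase, from 24.5 to 31.3 to 0.01 to 3.42 (log2 -6.03 ± 1.27, adjusted p = 0.00136). The ubiquitin ligase Rnf5, Dhodh of pyrimidine synthesis, Gm9008 and the glutathione transferase Gstm5 completed the 10 largest falls, with Pttg1, Cox6b2 and Ndufa4. Of these Gstm5 kept its call in 0 of 6 fits that left out a library, Rnf5 in 2 and Gm9008 in 3. The calls of Pim3, Dhodh and Rnf5 were lost with the 6 libraries alone fitted, and Pim3 and Rnf5 each had 1 MII library at the floor. Elob, an elongin subunit, changed by -2.39 ± 0.69 (adjusted p = 0.0168), a call kept in 3 of the 6 fits that left out a library.

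The change outside polysomes was next set beside the change in polysomes of the same gradients. In polysomes 268 genes were called higher and 219 lower in MII, 6.11% of the genes tested. The fractions come from the same gradients, and the polysome values are given beside them. The 210 genes higher in both made up 19.5% of the NP rises and 78.4% of the P rises, and the 114 lower in both made up 45.6% and 52.1%. A test of the difference between the changes called 13 genes (0.163%), and 587 had an unadjusted p under 0.05. This count ranged from 4 to 48 when 1 oocyte library was left out and was 173 with the 12 oocyte libraries alone fitted. In 9 of the 13 the NP change lay below the P change. Cdc20, the activator of the anaphase-promoting complex, had 77.3, 51.4 and 42.6 FPKM in NP GV and 100, 117 and 121 in NP MII (log2 1.02 ± 0.36, adjusted p = 0.0504). Outside polysomes it was uncalled in 6 of 13 other settings and called higher in the rest. On polysomes it went from 4.48 to 5.85 FPKM to 130 to 157, a log2 change of 4.81, and the difference was -3.79 (adjusted p = 0.000333), kept in 12 of 12 fits that left out 1 oocyte library. Magoh, a core protein of the exon junction complex, was the only gene called in opposite directions. It had 40.3, 36.7 and 21.1 FPKM in NP GV and 12.5, 8.31 and 11.9 in NP MII (log2 -1.55 ± 0.54, adjusted p = 0.049) and rose by 2.69 on polysomes; the NP call was kept in 1 of 6 fits that left out a library, the difference of -4.24 (adjusted p = 0.00898) in 11 of 12.

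Omt2a and Omt2b, oocyte maturation genes near identical in sequence, were abundant outside polysomes at both stages. Omt2a had 582, 786 and 401 FPKM in NP GV and 553, 454 and 700 in NP MII, groups that overlap, and rose by 3.32 on polysomes (difference -3.34, adjusted p = 0.00436). For Omt2b the difference was -2.65, for Nip7, a ribosome assembly factor, -3.69, for Tcl1b1, an oocyte and embryo factor, -3.16, and for Fbxl6, an F-box protein, -2.41; none of these 4 passed the test in the NP fraction alone. Of 12 fits that left out a library, the difference was called in 12 for Omt2a and Nip7, in 10 for Tcl1b1, in 4 for Omt2b and in 3 for Fbxl6. H3f3b, a gene for histone H3.3, fell outside polysomes (log2 -1.20 ± 0.22, adjusted p = 0.000469) with 0.58 on polysomes (adjusted p = 0.14), and the pseudogene Gm11993 differed by -2.29. In the other direction stood 0610012G03Rik, with a difference of 2.59, and the pseudogenes Gm10288, Gm9797 and Gm9035, with Gm9035 listed at the floor in all 3 NP GV libraries. H3f3b kept its call in 11 of the 12 fits and Gm9035 in 12, against 4 for 0610012G03Rik and 2 for Gm11993, Gm10288 and Gm9797.

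**Figure D4:**
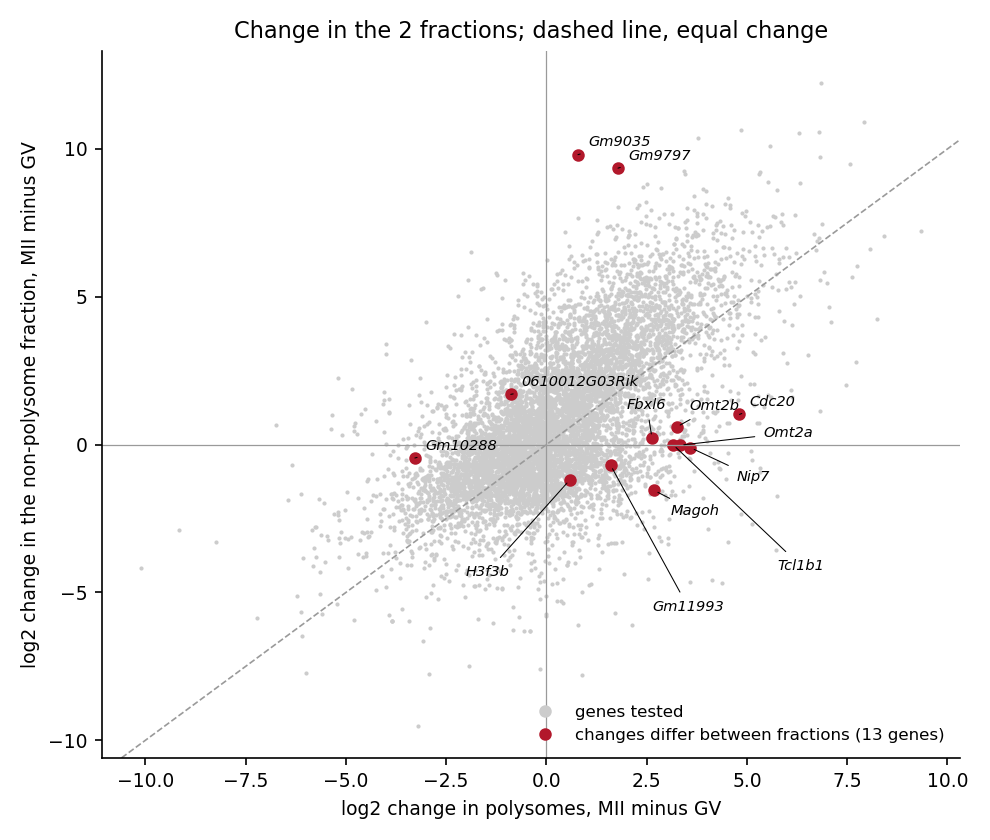
Log2 change in polysomes (horizontal) against log2 change in the non-polysome fraction (vertical), MII minus GV, for 7967 genes; red points are the 13 genes whose changes differ by the test, and the dashed line marks equal change. Cdc20, Magoh, Omt2a, Omt2b, Nip7, Tcl1b1 and Fbxl6 lie to the lower right, with polysome changes from 2.63 to 4.81.

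The 3′ ends of these transcripts were then read for the CPE, searched as TTTTAT or TTTTAAT in the last 100 bases of the annotated 3′ UTR, on the mRNA strand. Cdc20, Magoh, Omt2a and Omt2b held the element there, 4 of the 8 genes with a lower NP than P change that have a 3′ UTR model, beside 18.7% of all protein-coding genes tested, with the near-identical Omt2a and Omt2b counted separately. In contrast Nip7 and H3f3b held it only further upstream and Tcl1b1 and Fbxl6 in no part of the 3′ UTR. Sites of these genes are shown with sites of 2 genes that fell, Cks1b and Cks2, and 2 that rose, Eef1a1 and Ndufaf3, in the NP fraction, because the element occurs in both kinds of gene. Capitals mark the element, and 10 bases stand on each side. In Cdc20 a further site, 35 bases from the 3′ end, begins at the last T of the marked element, and its other bases stand in lower case. A further site in Cks1b, 14 bases from the 3′ end, is not shown. Positions are GRCm38 and all lie in the last exon.
Cdc20, 40 bases from the 3′ end, chr4:118432925-118432950, minus strand: cctttcttgtTTTTATtttatttttt
Magoh, 67 bases from the 3′ end, chr4:107887348-107887373, plus strand: ttggggcaatTTTTATaaacaataaa
Omt2a, 73 bases from the 3′ end, chr9:78312061-78312086, minus strand: atactgtgatTTTTATtattgccatg
Omt2a, 30 bases from the 3′ end, chr9:78312018-78312043, minus strand: gttttaacggTTTTATaataaataaa
Cks1b, 64 bases from the 3′ end, chr3:89415520-89415545, minus strand: aaattttgcaTTTTATctgacagatc
Cks2, 51 bases from the 3′ end, chr13:51650600-51650625, plus strand: taaatgcctgTTTTATtttacctgtt
Eef1a1, 76 bases from the 3′ end, chr9:78478508-78478534, minus strand: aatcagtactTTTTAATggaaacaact
Ndufaf3, 21 bases from the 3′ end, chr9:108565542-108565567, minus strand: tttcccaaacTTTTATtgaaaaattc
Omt2b carries the same pair of 26-base sites as Omt2a. In Omt2a the site nearest the end runs straight into AATAAA, the signal for cleavage and polyadenylation in the nucleus. Of the classical activation targets named above, Plat and Btg4 held the element in the window. Ccnb1, Tpx2 and Cdc6 held it only further upstream, and Mos in no part of the annotated 3′ UTR. These last 4 thus count as genes without a CPE below. A match is a description of the sequence and not evidence of binding, and the lack of one does not show that a gene escapes such control.

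Across the genes tested, those with a CPE had a lower median change outside polysomes and the same median on them. Of 6400 protein-coding genes tested, 6319 matched an annotated 3′ UTR model, and 1184 (18.7%) held a CPE in the window, beside 16.3% of all 21663 annotated protein-coding genes. It stood in 93 (11.0%) of 848 genes called higher in MII, in 38 (22.1%) of 172 called lower and in 19.9% of the genes not called. The median NP log2 change was -0.30 with and 0.63 without a CPE, while on polysomes both medians were 0.25. In single libraries, the median log2 FPKM of genes with a CPE minus that of genes without was 0.38, 0.93 and 0.30 in the GV NP libraries and -0.19, -0.36 and -0.26 in the MII NP libraries. Every GV library was thus above and every MII library below 0, and without GV replicate B the difference of the median changes was -0.81 beside -0.93. With 1 FPKM added to each value it was -0.33. On polysomes all 6 values were negative and the stages overlapped, from -0.43 to -0.05 in GV and from -0.49 to -0.16 in MII. No test is given for these medians, since genes are not replicates of a stage.

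**Figure D5:**
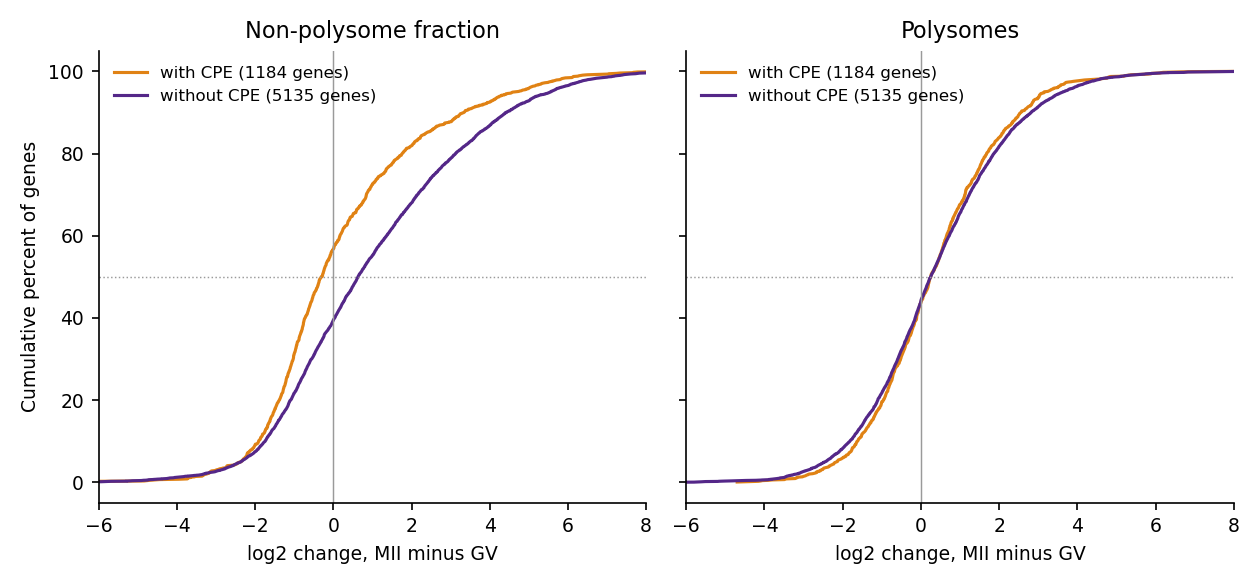
Cumulative percent of genes (vertical) by log2 change, MII minus GV (horizontal), for 1184 genes with and 5135 without a CPE in the last 100 bases of the 3′ UTR. In the non-polysome fraction the curve of CPE genes lies to the left (medians -0.30 and 0.63), and on polysomes the curves run together (0.25 and 0.25).

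The called genes also differed in length. Higher genes had a median transcript of 1826 bases and a 3′ UTR of 481 bases, against 2577 and 846 bases for genes not called. Lower genes were short as well, with medians of 1921.5 and 581.5 bases. With the genes split into 3 equal groups by transcript length, 20.3% of the shortest were higher against 7.59% of the longest. Within bins of 3′ UTR length the NP medians without and with a CPE were 1.99 and 1.02 up to 100 bases, 1.23 and -0.23 over 100 and up to 300, 0.84 and -0.37 over 300 and up to 1000, and 0.10 and -0.33 above. The bin up to 100 bases holds 32 genes with a CPE. The lower median of CPE genes was thus present at every length, and smallest in the longest bin. Other short A- and U-rich elements in the same window, AATAAA and ATTTA, were likewise less frequent among the higher genes, with 54.4% and 13.7% against 67.1% and 21.8% of the genes not called, while the lower genes held them in 76.7% and 23.8%. The part of base composition and of 3′ UTR length in the difference by CPE was not tested beyond these bins.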

How the data were processed

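Lysates of GV and MII oocytes were fractionated on sucrose gradients, and RNA of the non-polysome and polysome pools was made into oligo(dT)-primed SMART-Seq v4 libraries, so RNA with a short poly(A) tail may be recovered less well; this was not tested. Per the study's methods, reads were trimmed with Trim Galore 0.4.1 and aligned to GRCm38 with STAR 2.5.3a, and FPKM were computed on RefSeq genes; the tool for that step is not given in the sources used here, and Partek is named for testing. The authors deposited normalized FPKM per gene with a floor of 0.01, in 1 table of 23125 genes and 36 libraries; 38 samples are described. No counts were analysed, so differences in total RNA per oocyte are not seen.

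Testing was limited to the 7967 genes (6400 protein-coding) whose geometric mean across all 36 libraries reached 0.1 FPKM. Their log2 values, with no further offset, entered 1 linear model of 12 groups with a trended variance (limma 3.58.1, R 4.3.3); p-values are two-sided with Benjamini-Hochberg adjustment over all genes tested, and a call needs an adjusted p under 0.05 and a fold change over 2. The difference between the fractions was tested as an interaction in the same fit. Log2 changes of genes near the floor depend on it. The letters A, B and C of a group are described by the study as biological replicates. Nothing in the labels says whether they are separate collections. SEs and p-values measure the spread between samples of a group, pooled over the 12 groups, embryos included. The median replicate SD (log2) was 0.549 in NP MII and 0.906 in NP GV, against 1.64 in NP two-cell embryos. The median residual SD was 1.63 in this fit and 0.929 with the 6 libraries alone. Same-letter MII and GV libraries did not deviate together (r = -0.037, -0.052 and 0.046), so letters were not treated as pairs. The script was tested on simulated data.

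Named genes are the 10 protein-coding genes with the largest change each way and the 3 of other biotypes, among called genes with no overlap between groups and a mean of at least 10 FPKM in the higher group, then up to 4 called members of each gene list with the lowest adjusted p, genes always shown, the largest differences between fractions, and any gene in a count of 5 or fewer. The members and gene lists were chosen with earlier results of these data known. The 3′ UTR of 6319 protein-coding genes was taken from the GENCODE annotation of GRCm38, and 81 genes had no match; start and end of 7182 of the 7967 genes equal that annotation, although the methods name RefSeq genes, so the gene models behind the FPKM are uncertain. The search for CPEs and its alternatives were chosen after seeing the data. Python 3.11.15, numpy 2.4.6, pandas 2.3.3 and matplotlib 3.10.9 were used. Alternatives covered offsets, minimum levels, scaling, the libraries in the fit, replicate and gradient blocks, and leaving out each library.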

Additional observations from a re-analysis of the deposited data

Results flagged for a closer look

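The MII minus GV change differed between the non-polysome fraction and polysomes for 13 genes, by the interaction in the limma fit over all genes tested. The log2 change outside polysomes minus that on polysomes was -4.24 for Magoh, of the exon junction complex, -3.79 for Cdc20, the activator of the anaphase-promoting complex, -3.69 for the ribosome assembly factor Nip7, -3.34 for Omt2a and -2.65 for its near-identical copy Omt2b, -3.16 for Tcl1b1, -2.41 for the F-box gene Fbxl6, -2.29 for the processed pseudogene Gm11993 and -1.78 for the histone H3.3 gene H3f3b. It was 2.59 for 0610012G03Rik and 2.83, 7.57 and 9.02 for the pseudogenes Gm10288, Gm9797 and Gm9035. Of the 12 fits that left out 1 oocyte library, Cdc20, Nip7, Omt2a and Gm9035 were called in 12, H3f3b and Magoh in 11 and Tcl1b1 in 10. The call was kept in 4 of 12 for 0610012G03Rik and Omt2b, in 3 for Fbxl6, and in 2 for Gm10288, Gm11993 and Gm9797. Reads of pseudogenes and of near-identical copies may be shared with other genes. A dependence of these differences on fraction yield or RNA integrity was not tested.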

How the results depend on the processing

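Against 1326 called genes (1076 higher, 250 lower) and 13 interaction calls, 1998 were called with 1 FPKM added, 2121 with quantile normalization, 2666 with the 12 oocyte libraries fitted and 753 with the 18 non-polysome libraries. Higher calls were 699 with median centring, 1867 with 12 libraries and 596 with 18. Lower calls were 421 with 0.1 and 560 with 1 FPKM added, 1075 with quantile normalization, 423 with centring, 567 with the 6 libraries alone, 799 with 12 and 157 with 18. Interaction calls were 30 with 0.1 and 112 with 1 FPKM added, 45 with no minimum, 20 with a mean of at least 1 FPKM, 70 with quantile normalization, 173 with 12 libraries and 20 with the gradient block. The cause of these shifts was not tested. Leaving out 1 of the 6 libraries compared gave 777 (without GV replicate B) to 1362 calls (without GV replicate C), 608 to 1152 higher and 169 to 210 lower. Leaving out 1 of the 12 oocyte libraries gave 4 (without polysome GV replicate A) to 48 interaction calls (without non-polysome GV replicate C). Without MII replicate C 873 were called.

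With the replicate letter as a block, 1261 genes were called, 1021 higher and 240 lower, and 13 by the interaction, 11 of them the same genes. Same-letter MII and GV non-polysome libraries did not deviate together, so for this comparison the block rests on a letter alone. Between the fractions of 1 stage, same-letter r was 0.116, -0.00625 and 0.141 in MII and 0.037, 0.084 and 0.093 in GV for A, B and C, and the gradient block covers that case.

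Of the named genes, those whose direction turned under a setting were not called outside polysomes. Quantile normalization and centring move the median of all genes from 0.44 to -0.39 and -0.18, and list medians near that of all genes turned with it: under quantile normalization from 0.48 to -0.37 for storage and repression, from 0.42 to -0.14 for initiation factors, from 0.42 to -0.061 for MCM and origin licensing and from 0.27 to -0.24 for embryonic genome activation; these turned with centring too. Such turns follow the shift of all genes and say nothing of the lists relative to other genes. The median of the subcortical maternal complex, near 0, turned in fits without 1 library. Fbxl6 gave -0.40, Omt2b -0.029, Rpl35 -0.16 and Tcl1b1 -0.62 with median centring, Omt2a 0.21 and Rpl35 -0.055 with quantile normalization, and Tcl1b1 -0.0035 as a ratio of mean FPKM. Leaving out 1 library moved Nip7 from -0.36 to 0.28, Omt2a from -0.27 to 0.21 and Tcl1b1 from -0.16 to 0.11. Of 80 named genes that were called, 62 kept the call in every fit without 1 library, 49 under every setting, and 0 changed sign; 7 of 19 uncalled ones were called under some setting. The median change of CPE genes minus other genes was -0.93, between -1.38 (whole 3′ UTR) and -0.33 (1 FPKM added) under the alternatives, which were chosen after seeing the data.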

Other observations

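Few members of the gene groups not described above were called, and these groups are small. Beside 13.5% higher and 3.14% lower over all genes, 1 member each was called of the zona, the snoRNA host and the MCM and origin licensing groups. In the MCM and origin licensing group it was Cdc6, given above, 1 of 14 tested (7.14% higher). Of 7 zona pellucida and sperm-egg genes tested, Izumo1r, the egg receptor for sperm IZUMO1, rose from 15.5 to 20.9 FPKM to 64.3 to 92.7 (log2 2.19 ± 0.68, limma adjusted p = 0.0252), a call kept in 1 of 6 fits that left out a library. Of 9 snoRNA host transcripts Snhg1 was called (log2 3.89 ± 1.35, adjusted p = 0.0469) with overlapping groups, a call kept in 1 of 6 fits that left out a library and in 4 of 12 other settings, and with 1 FPKM added the log2 change was 0.64 (adjusted p = 0.393). The median of the 9 was 1.67 beside 0.44 for all genes, and 0.31 beside 0.16 without GV replicate B. Of 5 genes of the cAMP arrest pathway 0 were called by limma. At an unadjusted p under 0.05, 2 were lower, beside 2275 of all 7967 genes with such a p in either direction. Under other settings 2 were called lower with quantile normalization and with the 6 or the 12 oocyte libraries fitted, and 1 with centring. Of 6 markers of embryonic genome activation 0 were called and 0 had such a p.

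Protein-coding genes, processed pseudogenes and lincRNAs lay near the 13.5% higher and 3.14% lower of all genes: 856 of 6400 protein-coding genes were higher and 176 lower, and 124 of 891 processed pseudogenes were higher and 35 lower. For lincRNAs the counts were 28 and 5 of 196. Among 48 unprocessed pseudogenes 1 was higher and 7 lower, with a median log2 change of -0.24 beside 0.44 for all genes. The lincRNA Gm26909 fell from 8.96 to 23.3 FPKM to 0.957 to 1.19 (log2 -3.63 ± 0.65, adjusted p = 0.000283), and the processed pseudogenes Gm5526 and Gm8894 fell (log2 -3.45 and -3.10).

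In the shortest of 3 equal groups by transcript length the median log2 change was -0.40 for genes with a CPE and 1.41 for genes without, in the middle group -0.27 and 0.76, and in the longest -0.26 and -0.04.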
